A study of Mus musculus with 2 samples.

Results

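The regions described here are the open chromatin regions at 10 genes of the epidermal growth factor (EGF) family in basal cells of mouse back skin. They comprise 7 ligand genes (Areg, Ereg, Btc, Epgn, Hbegf, Tgfa and Nrg1) and 3 receptor genes (Egfr, Erbb2 and Erbb3). A region belongs to a gene if it has at least 20 counts summed over both libraries and if the nearest span of a protein-coding gene, within 50 kb, is that of the gene. This gave 112 regions of the 94857 with at least 20 counts, and another 27 regions at these genes had fewer counts. ATAC-seq, which marks accessible DNA by the adapters that the Tn5 transposase places there, was run on 10000 cells per library sorted for ITGA6, an integrin subunit of basal cells, and against CD34, a hair follicle stem cell marker. The control group was 1 untreated CD1 mouse, and the stretched group was 1 CD1 mouse whose back skin had been expanded by mechanical force. CD1 is an outbred stock, and neither a genetic change nor an age is named for either mouse. With 1 library per group there is no replicate and no test, so the animal and the treatment cannot be told apart.

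EGF family ligands are made as precursors anchored in the cell membrane and are released by metalloproteases such as ADAM17. AREG, EREG, EPGN, BTC, HBEGF and TGFA bind EGFR, while neuregulins such as NRG1 bind ERBB3 and ERBB4, and activated receptors pair up and signal through the RAS to ERK and PI3K pathways. ERBB2 has no ligand of its own and serves as a partner of the other receptors, and ERBB3 has little kinase activity and relies on its partner. In epidermis, ligands made by keratinocytes act on EGFR of basal cells, where the pathway sustains proliferation and takes part in wound repair.

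Epgn, Ereg, Areg and Btc lie next to each other on chromosome 5, within 375 kb, and the promoters of the 3 of them with a listed sequence are shown. After the scaling given below, the summed level of all regions of the gene was higher in the stretched library for Epgn and Areg and lower for Btc. Each sequence is the 250 bases before the start site, 5′ to 3′, from RefSeq (GRCm38.p6), and capitals mark the motif matches described next. Epgn lies on the plus strand at chr5:91027267-91027516, Areg on the plus strand at chr5:91139349-91139598 and Btc on the minus strand at chr5:91402995-91403244.
Epgn: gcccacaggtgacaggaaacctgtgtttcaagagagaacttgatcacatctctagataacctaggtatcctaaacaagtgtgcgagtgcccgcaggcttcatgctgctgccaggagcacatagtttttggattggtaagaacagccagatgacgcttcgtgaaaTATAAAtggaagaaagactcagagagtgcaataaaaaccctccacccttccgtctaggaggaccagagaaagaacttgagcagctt
Areg: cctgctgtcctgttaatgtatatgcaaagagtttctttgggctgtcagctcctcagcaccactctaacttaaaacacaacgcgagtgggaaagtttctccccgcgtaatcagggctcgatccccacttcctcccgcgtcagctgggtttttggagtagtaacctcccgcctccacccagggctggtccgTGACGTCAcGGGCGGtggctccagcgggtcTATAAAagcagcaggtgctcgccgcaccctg
Btc: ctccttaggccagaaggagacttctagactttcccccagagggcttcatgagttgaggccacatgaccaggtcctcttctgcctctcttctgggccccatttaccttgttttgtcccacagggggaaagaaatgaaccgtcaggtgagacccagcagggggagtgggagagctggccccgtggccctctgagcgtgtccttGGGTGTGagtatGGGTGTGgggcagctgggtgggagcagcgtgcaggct

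The Areg promoter held a cAMP response element (TGACGTCA) from base -61 to -54 before the start site, a GC box (GGGCGG) from -52 to -47 and a TATA box (TATAAA) from -31 to -26. The Epgn promoter held the TATA box letters from -86 to -81. Btc held the letters of a KLF motif (GGGTGTG) at 2 places, -49 to -43 and -37 to -31. Of all 32851 promoter windows of the same length, 1.55% held the cAMP response element on either strand, 32.7% the GC box, 12.4% the TATA box and 6.93% the KLF letters. Windows were listed for 6 members, and of the other 3 Tgfa and Egfr held a GC box and Erbb2 the TEAD letters GGAATG, which 12.6% of all windows held. None of the 6 windows held the AP-1 (TGANTCA), GRHL (AACNGGTT), E-box (CACGTG), ETS (CCGGAAGT) letters or the NF-kB motif, which were in 6.75%, 1.79%, 6.02%, 2.88% and 0.98% of all windows. No 2 of these matches overlapped, and a match describes letters only. Ereg, Hbegf, Nrg1 and Erbb3 were not matched.

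The 2 libraries held 8820178 (control) and 11803785 (stretched) counts over 109257 merged regions, and 10 regions of over 10000 counts, none at a member, took 34.5% and 48.9% of them. Folds are stretched over control after TMM scaling in edgeR, which sets the median region near a fold of 1, and each is followed by an exact Clopper-Pearson 95% interval that covers counting error only. A region was called higher with a fold of at least 2, or lower with a fold of 0.5 or less, if that interval excluded 1. All 6 basal keratinocyte markers (Krt5, Krt14, Itga6, Itgb4, Trp63 and Col17a1) had regions with peaks in both libraries. Genes of other cell types also had open regions, which does not show that they were expressed. In the control, peaks were assigned to 5 of 6 suprabasal, 6 of 6 hair follicle, 5 of 5 sebocyte, 4 of 6 fibroblast, 3 of 6 immune, 5 of 6 melanocyte, 4 of 4 endothelial and 3 of 4 Merkel cell markers. No region was assigned to Flg, Lum, Lyz2, Trdc, Tyr or Krt20. The summed level of these lists also differed between the libraries. Basal markers went from 519 CPM in the control to 564 CPM (interval above 1 in 3 of 6 genes and below in 1). Hair follicle markers went from 242 to 215 (above in 2 of 6 and below in 4), and suprabasal markers from 133 to 123 (above in 2 of 5 and below in 2). Fibroblast markers went from 67.6 to 55.6 CPM (above in 1 of 5 and below in 2), and immune from 30.9 to 28.6 (above in 1 of 4 and below in 1). Melanocyte markers went from 172 to 153 (above in 0 of 5 and below in 2), and endothelial from 119 to 102 (above in 1 of 4 and below in 2). Sebocyte markers went from 144 to 154 (above in 1 of 5 and below in 0), and Merkel cell markers from 41.0 to 44.4 (above in 1 of 3 and below in 0). The part of other cell types in the values that follow was not tested.

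Regions at the EGF family genes were more often higher than lower in the stretched library. Of the 112 regions, 13 (11.6%) were higher and 2 (1.79%) lower, against 6.90% and 8.66% of all 81252 regions within 50 kb of a protein-coding gene, and 7.22% and 8.71% of all regions with at least 20 counts. Folds were above 1 in 76 of the 112, against 40283 of all 81252 regions. The median log2 fold of the 112 was 0.31, against -0.01 for all 81252 regions. The higher regions were spread over 9 genes, all members but Erbb2, and both lower regions were at Tgfa. They were mostly weak sites, with a median of 48.0 summed counts. Of the 13 higher regions, 10 had no listed control peak, which held for 56.3% of all higher regions near genes. Of these 10, 6 had a peak in the stretched library alone and 4 had a peak in neither. Of the 7 higher regions at genes with a listed start site none spanned it. In regions of 20 to 49 counts, 7 of 40 members were higher against a background of 8.38%, in regions of 50 to 99 counts 4 of 32 against 6.09%, and in regions of 100 counts and more 2 of 40 (5.00%) against 6.11%. In the same order, 1 of 40, 0 of 32 and 1 of 40 members were lower, against 13.6%, 10.7% and 2.84%. Scaling by all counts, which lowers every fold and puts the median log2 fold of all regions at -0.50, left 3 members higher and 18 lower, against 1.47% and 23.4% of all regions near genes. With no minimum count, 14 of 139 regions (10.1%) were higher and 5 (3.6%) lower, against 6.69% and 8.56% of all regions near genes.

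**Figure D1:**
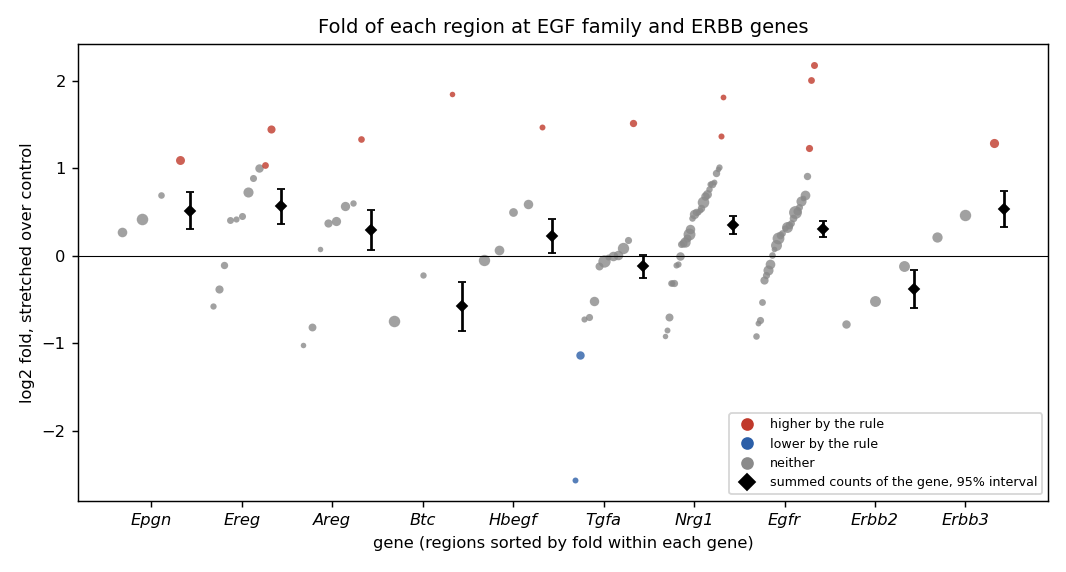
Log2 fold (stretched over control) of each region, sorted within each gene, with point size growing with the summed count, and in black the fold of the summed counts of each gene with its 95% counting interval. The 13 higher regions (red) are spread over 9 genes, and both lower regions (blue) belong to Tgfa.

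Taken by gene, 7 of the 10 members had a summed fold whose interval lay above 1 and 2 one whose interval lay below 1, against 36.1% and 18.6% of all 16949 genes with regions. Such intervals narrow as counts add up, and the members had 112 regions over 10 genes, against 81252 over the 16949 genes. The numbers of genes also depend on the scaling: with scaling by all counts 0 lay above and 6 below, and with scaling outside the large regions 5 above and 3 below. The shares of all genes under these scalings were not computed. The median log2 fold of the members was 0.30, against 0.12 for all genes. From high to low the order was Ereg at 1.48, Erbb3 at 1.45, Epgn at 1.43, Nrg1 at 1.28, Egfr at 1.24, Areg at 1.23, Hbegf at 1.17, Tgfa at 0.920, Erbb2 at 0.767 and Btc at 0.670. Neighbours in this order had overlapping intervals, except that the interval of Tgfa lay below that of Hbegf. None of these folds was extreme among all genes, with Ereg at percentile 80.3 and Btc at percentile 9.90.

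The ligand cluster on chromosome 5, taken as 1 locus, held 26 regions, whose counts summed to 1245 in the control against 1447 after stretching, or 1.23-fold (1.14 to 1.33), of which 5 were higher and none lower. The ligands of the cluster did not share a direction: without Btc the fold was 1.39 (1.27 to 1.51), and Btc alone was at 0.670 (0.551 to 0.813). Scaling by all counts turned the fold of the locus below 1, to a log2 fold of -0.20, and so did leaving out the regions outside the gene spans, to -0.067 with an interval that held 0.

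Ereg encodes epiregulin, a ligand of EGFR and ERBB4, on chromosome 5 from 91074617 to 91093649. Its 11 regions summed to 359 counts in the control and 502 after stretching, 1.48-fold (1.29 to 1.70). The difference lay outside the gene: the 4 regions that touch its span held 135 and 115 counts (0.900, 0.696 to 1.16), and its 7 in the 45.9 kb gap towards Areg held 224 and 387 counts (1.83, 1.54 to 2.16). Folds were above 1 in all 7 of these and in 1 of the 4 others. The gap holds 1 more member region, nearer to Areg, with 15 and 7 counts (0.493, 0.170 to 1.28), and all 8 together stood at 1.74 (1.48 to 2.05). With all-count scaling the interval of Ereg held a log2 fold of 0 (0.063, -0.13 to 0.26).

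Among the gap regions, the one 7864 bp beyond the end of Ereg, from 91101513 to 91102218, went from 26 to 67 counts, 2.72-fold (1.71 to 4.46). A region 17490 bp beyond the end, from 91111139 to 91111571, went from 16 to 31 counts, 2.05-fold (1.09 to 4.01). Both had a peak in the stretched library alone. The strongest region of Ereg, 10515 bp beyond its end, had 87 and 136 counts, 1.65-fold (1.25 to 2.19), and a region at 4315 bp with 37 and 70 counts fell just short of the rule at 1.999. These regions lie closer to Ereg than to Areg, and which gene they act on was not measured. 

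Areg encodes amphiregulin, an EGFR ligand abundant in keratinocytes, on chromosome 5 from 91139599 to 91148432. Its 8 regions held 287 and 333 counts (1.23, 1.04 to 1.44). The region over its start site, from 91139133 to 91140109, which holds the promoter printed above, had 66 and 93 counts, a fold of 1.49 (1.07 to 2.07). The authors' summits lay 60 and 48 bp after the start site. A weak region 2.72 kb after the start, with 13 and 31 counts and no listed peak, was the 1 higher region of the gene (2.52, 1.28 to 5.25). The 3 regions touching Areg together stood at 1.64 (1.25 to 2.14), the 4 beyond its end at 1.07 (0.863 to 1.32), and the remaining 1 is the region with 15 and 7 counts in the gap towards Ereg. The log2 fold of Areg, 0.29 (0.062 to 0.53), turned to -0.21 with all-count scaling, and its interval held 0 with scaling outside the large regions (0.15, -0.079 to 0.39) and with at least 50 counts (0.25, -0.011 to 0.51).

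Epgn encodes epigen, another EGFR ligand, on chromosome 5 from 91027517 to 91035212. All 4 of its regions had folds above 1, with 323 and 437 counts in sum (1.43, 1.24 to 1.66). Its start site region had 84 and 96 counts (1.21, 0.892 to 1.64). A region 1337 bp beyond the gene, from 91036549 to 91037370, was higher, with 45 and 91 counts (2.14, 1.48 to 3.13), and its strongest region, 2442 bp beyond the gene, had 177 and 224 counts (1.34, 1.09 to 1.64). The interval of its log2 fold held 0 with all-count scaling (0.016, -0.20 to 0.23) and with only regions that touch the gene (0.35, -0.040 to 0.75).

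Btc encodes betacellulin, a ligand of EGFR and ERBB4, on chromosome 5 from 91357261 to 91402994. Its summed fold lay below 1, unlike those of Ereg, Areg and Epgn. The region over the start site of Btc, from 91402184 to 91403150, had 250 counts in the control against 141 in the other library, 0.596-fold (0.481 to 0.736). The other genes of the cluster did not share a direction there. The interval of the start site region lay above 1 at Areg and held 1 at Epgn. Ereg has no listed start site, and the region over its lower end had 55 and 40 counts (0.769, 0.498 to 1.18). Per kb of region Btc had the most open start site of the 6 members with a listed one in the control, with 259 counts per kb against 59.5 to 93.0 at the others. The best summit of that region of Btc lay 446 bp after the start site in the control and 257 bp after it once stretched. The 1 higher region of Btc had 5 and 17 counts and lay 45101 bp from the gene.

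In the gap of 209 kb between Areg and Btc, 9 regions with at least 20 counts belong to no member. They lay over 50 kb from the nearest protein-coding gene. Of the 9, 3 were higher and none lower, against 7.22% and 8.71% of all regions with at least 20 counts. The 3 were weak, with 10 and 36, 5 and 20, and 6 and 18 counts. A region with 40 and 21 counts had an interval below 1 (0.555, 0.311 to 0.964). Of the 3 nearest genes with regions on each side, 3 of 6 had an interval above 1, against 36.1% of all genes. On the Epgn side, the intervals of Mthfd2l at 1.20 (1.06 to 1.36) and the chemokine gene Cxcl1 at 1.51 (1.29 to 1.76) lay above 1, whereas that of Cxcl2, another chemokine gene, held 1 at 1.18 (0.873 to 1.59). On the Btc side, Parm1 stood at 1.02 (0.925 to 1.12) and Odaph at 1.02 (0.755 to 1.38), and Rchy1, 545848 bp away, at 2.15 (1.73 to 2.67).

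**Figure D2:**
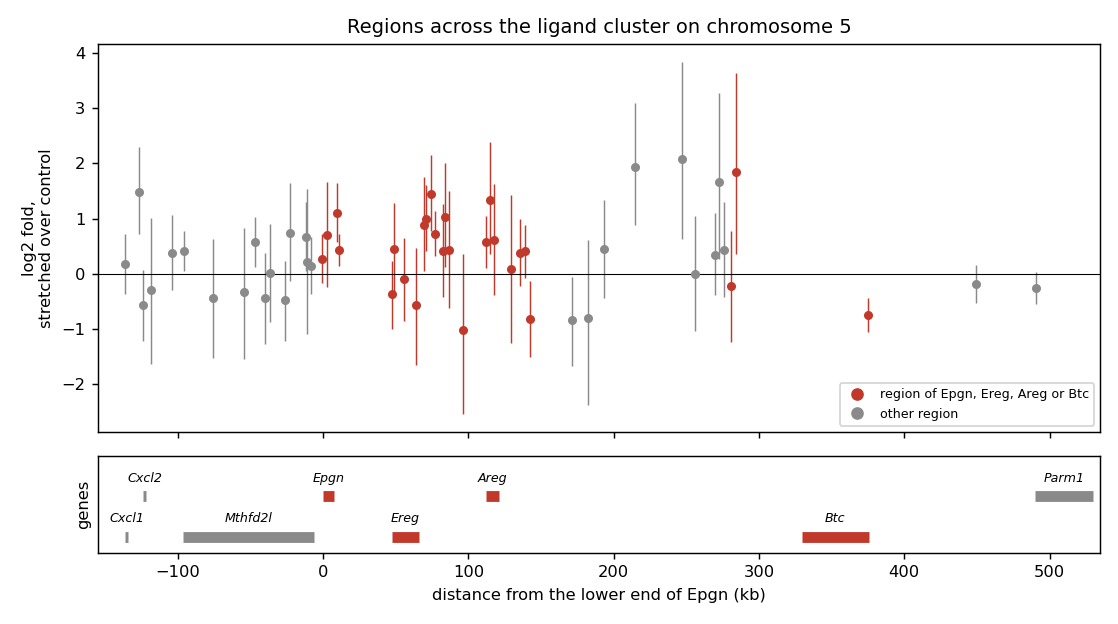
Log2 fold of each region (points, with 95% counting intervals) by distance in kb from the lower end of Epgn, above the spans of the genes. The regions between Ereg and Areg sit mostly above 0, and the start site region of Btc, at the right end of its gene, sits below 0.

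Hbegf encodes heparin-binding EGF, a ligand linked to keratinocyte migration in wounds, on chromosome 18 from 36504927 to 36515805. Its 5 regions held 419 and 463 counts (1.17, 1.02 to 1.34). The strongest, inside the gene, had 193 and 177 counts (0.969, 0.786 to 1.19), and the region at the upper end of the gene had 71 and 101, a log2 fold of 0.59 (0.14 to 1.05). The 1 higher region had 8 and 21 counts, with no listed peak, 3129 bp beyond the gene. The log2 fold of Hbegf, 0.22 (0.030 to 0.42), turned to -0.28 with all-count scaling. Its interval held 0 with 8 other alternatives, at log2 folds from 0.051 with the lowess trend removed (-0.14 to 0.25) to 0.18 with at least 50 counts (-0.013 to 0.38).

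Tgfa encodes transforming growth factor alpha, an EGFR ligand of keratinocytes, on chromosome 6 from 86195038 to 86275744. It held the only lower regions of the family with at least 20 counts. Under that minimum, regions of Areg (16 and 3 counts), Hbegf (12 and 1) and Nrg1 (12 and 3) had folds below 0.5 and intervals below 1. The 13 regions of Tgfa summed to 1009 and 878 counts (0.920, 0.839 to 1.01). On the log2 scale this is -0.12 (-0.25 to 0.011), and the interval lay wholly below 0 with all-count scaling (-0.62, -0.75 to -0.49), scaling outside the large regions (-0.26, -0.39 to -0.13), the lowess trend removed (-0.31, -0.44 to -0.18) and a limit of 10 kb (-0.22, -0.39 to -0.054). By counts the start site region was level, with 89 and 85 counts (1.01, 0.741 to 1.37), and so was its strongest region, 24.2 kb after the start, with 284 and 258 counts (0.960, 0.808 to 1.14).

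Further into the gene the folds parted. A region 35.6 kb after the start, from 86230309 to 86231331, went from 17 to 46 counts, 2.86-fold (1.61 to 5.32), with a peak in both libraries. A region 57.4 kb after the start, from 86251879 to 86253274, went from 74 to 32 counts, 2.19-fold lower (1.43 to 3.42). A weak region 52.6 kb after it, from 86247641 to 86248021, went from 25 to 4, 5.91-fold lower (2.04 to 23.4), and had no listed peak. The 4 regions beyond the midpoint of the gene summed to 156 and 69 counts (0.467, 0.347 to 0.624), and the 3 before it to 390 and 389 (1.05, 0.914 to 1.22).

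Nrg1 encodes neuregulin 1, the ligand of ERBB3 and ERBB4, in a long gene on chromosome 8 from 31807452 to 32891609. All of its 33 regions lie inside the span, 32 of them in the lower 542 kb, and they held 1337 and 1615 counts (1.28, 1.19 to 1.37). Folds were above 1 in 25 of the 33. Of these 33 regions, 9 had a peak in the stretched library alone, 1 in the control alone and 10 in neither. The shares of all regions near genes were 14.1%, 9.24% and 15.6%. The strongest region, from 32008429 to 32010188, had 219 and 247 counts (1.19, 0.990 to 1.44), and another strong one, from 32264655 to 32265808, had 163 and 237 (1.54, 1.25 to 1.89). The 2 higher regions were weak, with 6 and 20 counts in the first and 9 and 22 in the second, and had no listed peak in either library. With all-count scaling the sum of Nrg1 turned to a log2 fold of -0.15 (-0.25 to -0.042).

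Egfr encodes the receptor of most of these ligands, on chromosome 11 from 16752203 to 16913907. Its 29 regions held 1713 and 2007 counts (1.24, 1.16 to 1.32), with 21 folds above 1, 3 regions higher and none lower. The strongest region of the whole family in summed counts lies inside the gene, 48.6 kb after the start, from 16800221 to 16801397, and went from 292 to 390 counts (1.41, 1.21 to 1.65). The start site region had 214 and 233 counts, a fold of 1.15 whose interval (0.952 to 1.39) held 1.

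The higher regions of Egfr lie deep in the gene. They were centred 65.2 kb after the start (18 and 40 counts, 2.35-fold, 1.32 to 4.35), 81.1 kb after it (10 and 43, 4.54-fold, 2.25 to 10.1) and 125 kb after it (10 and 38, 4.02-fold, 1.96 to 9.04). The latter pair had a peak in the stretched library alone. In the first 80.9 kb of the gene the 15 regions stood at 1.20 (1.11 to 1.30) in sum, and the 10 farther on at 1.42 (1.23 to 1.64), so the intervals overlap. Picked out after the values were seen, the 5 regions that follow the start site region had folds from 0.528 to 0.896. With all-count scaling the sum of Egfr turned to a log2 fold of -0.19.

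**Figure D3:**
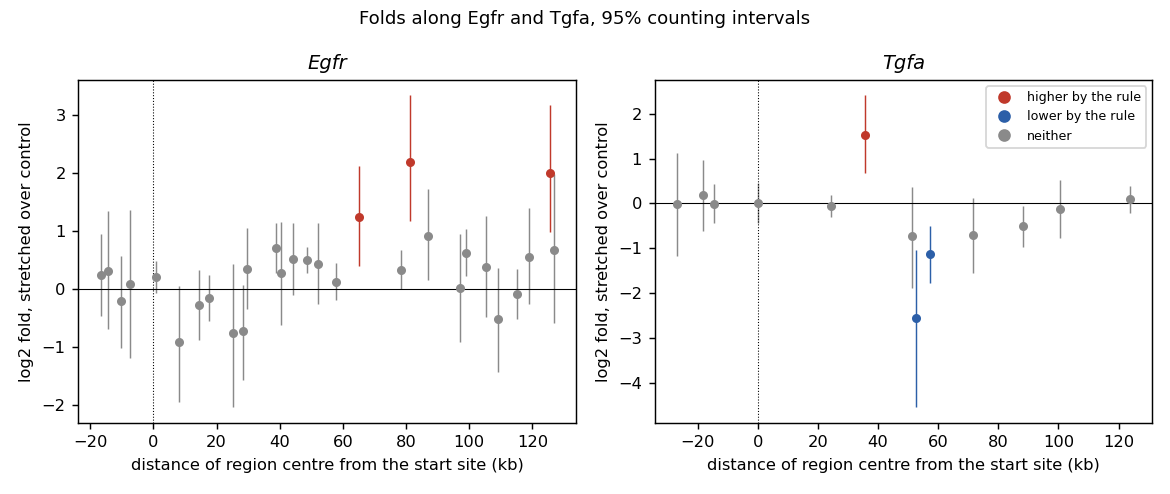
Log2 fold of each region of Egfr (left) and Tgfa (right) by the distance of its centre from the start site (dotted line), with 95% counting intervals. The 3 higher regions of Egfr (red) lie 65.2 to 125 kb after its start, and the 2 lower regions of Tgfa (blue) lie 52.6 and 57.4 kb after its start.

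Erbb2 encodes the receptor without a ligand of its own, on chromosome 11 from 98412484 to 98437716, and was the receptor with less open regions in the stretched library. All 3 of its regions had folds below 1, with 419 and 304 counts in sum (0.767, 0.659 to 0.891), and none reached a fold of 0.5. The start site region had 164 and 143 counts (0.921, 0.731 to 1.16), the region 6.70 kb into the gene 186 and 123 (0.699, 0.552 to 0.882) and the one 5075 bp before it 69 and 38 (0.582, 0.381 to 0.877). The last of these regions lies nearly as close to another gene, Pgap3, at 5518 bp. With only regions that touch the gene, the log2 fold of Erbb2 was -0.32 (-0.55 to -0.082). With regions given to the nearest gene end, the interval of its log2 fold held 0 (-0.17, -0.35 to 0.0020).

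Erbb3 encodes the neuregulin receptor with a weak kinase, on chromosome 10 from 128567523 to 128589635. Its 3 regions, all touching the gene, held 324 and 444 counts (1.45, 1.25 to 1.68). The region from 128587206 to 128588034 was higher, with 45 and 104 counts (2.44, 1.71 to 3.55) and a peak in the stretched library alone. The region over the upper end of the gene had 165 and 215 counts (1.38, 1.12 to 1.70). With all-count scaling the interval of the log2 fold of Erbb3 held 0 (0.034, -0.18 to 0.25). Erbb3 is also known from melanocytes, and the summed level of the melanocyte marker list was 172 CPM in the control and 153 CPM after stretching, with 1 of its 29 regions higher and 2 lower. In bulk libraries more cells of a type and more open sites per cell cannot be told apart.

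**Figure D4:**
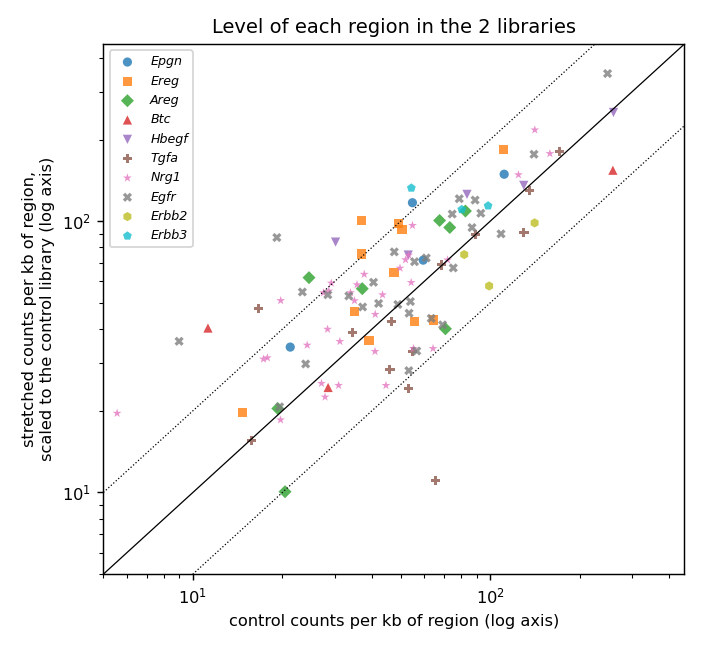
Counts per kb of each region, control on the x axis and stretched (scaled to the control) on the y axis, both log axes, with 1 marker shape per gene. The solid line marks equal levels and the dotted lines a fold of 2 in either direction, and most regions lie between the dotted lines.

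The authors' peak tables give a further measure, the fragment pileup at each summit, which was read in the 64 member regions with a peak in both libraries. Relative to the median of all 57064 such regions, the members' median log2 pileup ratio was 0.09, beside a median log2 count fold of 0.21 in the same regions. Each gene value is a median over its regions with a peak in both libraries, from 1 region at Btc and 2 at Erbb3 to 18 at Egfr. It is set beside the sum over all regions of the gene. Direction by pileup matched that by counts for Epgn (0.91), Nrg1 (0.49), Erbb3 (0.48), Egfr (0.15), Erbb2 (-0.34) and Btc (-0.76). The values of Ereg (0.05), Areg (-0.045) and Hbegf (-0.015) lay near 0, each below the count interval of its gene. The sign turned for Areg and Hbegf, so the direction of both depends on the measure. For Tgfa, whose count interval held 1, the pileup value was 0.02. Of the 112 regions, 64 had a peak in both libraries (against 61.0% of all regions near genes), 20 in the stretched library alone and 2 in the control alone, against 14.1% and 9.24% of all regions near genes. The remaining 26 had a peak in neither library, against 15.6% of all regions near genes. Peaks were called on each library alone. The control held 31944854 fragments and 8820178 counts over merged regions, and the stretched library 23876613 and 11803785. The part of this difference in the peak lists was not tested. At the start site of Epgn the deposited pileup was 27.0 fragments in the control and 56.0 after stretching, and at that of Btc it was 118 and 77.0.

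Over 54 other genes of ligand handling and ERBB signalling, 25 of 427 regions (5.85%) were higher and 39 (9.13%) lower, beside the background of 6.90% and 8.66%. By gene, summed folds had intervals above 1 in 26 of the 54 and below 1 in 8, against 36.1% and 18.6% of all genes, and their median log2 fold was 0.16, against 0.12 for all genes.

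The 5 other ligands and receptors had 1 region higher and 7 lower of 42. Nrg2, another neuregulin gene, had 5 of 20 lower (0.597, 0.546 to 0.653), and Egf, the founding ligand, had 1 higher and 1 lower of 9 (1.61, 1.40 to 1.86). Of the 28 regions at ligand shedding genes, 2 were higher and 4 lower. Rhbdf2, which encodes iRhom2, a partner of the sheddase ADAM17, had 3 of 10 lower (0.578, 0.507 to 0.657), and Adam10, a sheddase gene, 1 higher and 1 lower of 9 (0.977, 0.857 to 1.11).

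Receptor inhibitors and ubiquitin ligases had 9 regions higher and 9 lower of 122. Here 6 of the higher regions were at Cblb, which encodes an E3 ligase that acts on activated receptors (26 regions, 1.62, 1.51 to 1.73). Lrig1, which encodes a membrane inhibitor of ERBB receptors, had 3 of 21 lower (0.933, 0.873 to 0.996). Adaptors and exchange factors had 3 higher and 11 lower of 65. Gab1, a docking protein gene, had 2 higher and 5 lower of 28 (1.11, 1.02 to 1.19), and Grb2, which links receptors to RAS activation, 2 lower of 14 (0.824, 0.740 to 0.917).

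Downstream, the RAS to ERK kinases had 6 regions higher and 1 lower of 44, with an interval above 1 in 6 of the 10 genes and below 1 in none. The ERK feedback genes had 2 higher and 2 lower of 70, and of the Sprouty-related inhibitors Spred2 had 2 lower of 23 (1.01, 0.946 to 1.09) and Spred1 1 higher of 11 (1.48, 1.31 to 1.67). The PI3K arm had 2 higher and 5 lower of 56, with 1 each way at both Pik3r1 (1.11, 1.03 to 1.20) and Pik3cb (1.13, 1.01 to 1.26), which encode a regulatory and a catalytic subunit.

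**Figure D5:**
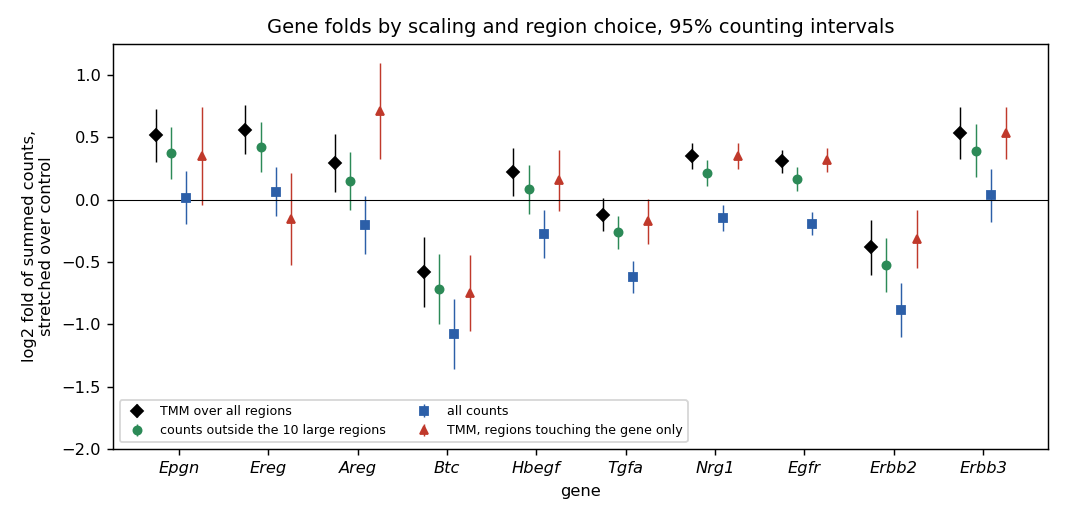
Log2 fold of the summed counts of each gene, with 95% counting intervals, under 3 scalings and with only the regions that touch the gene. Btc, Tgfa and Erbb2 lie below 0 in all 4, while Areg, Hbegf, Nrg1 and Egfr drop below 0 with all-count scaling and Ereg drops below 0 once regions outside the gene are left out.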

How the data were processed

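ATAC-seq of sorted basal cells was analysed from processed files of 1 control and 1 stretched library, grouped by the treatment label. Per the submitters' processing notes the build was GRCm38 and the tools were MACS2 2.1.0.20151222, HTSeq, Picard, SAMtools and Bowtie2 2.2.6, with no roles given, and per the file headers peaks were called with MACS2 on each library alone, without a control file, at a q cutoff of 0.05. The deposited counts are raw counts over shared merged regions, with the counting program and its treatment of duplicates not given in the sources. The deposited pileup is a signal in fragments at the summit (31944854 and 23876613 fragments in all), the deposited fold enrichment a ratio to local background, and the deposited -log10 q-values rank peaks within a library.

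Scaling used TMM in edgeR 4.0.16 (R 4.3.3), and folds and intervals Python 3.11.15 with scipy 1.17.1. Where a library had 0 counts, its fold used 3. Counts are not independent molecules. Gene spans and promoters came from RefSeq tables of GRCm38 (21900 protein-coding genes), without exons, and region starts are printed 1-based. The fold and calls were tried on simulated counts that hold counting error only, so spread between animals or libraries was not tested. The limits of the gene assignment split near values, with a Btc region at 48873 bp (21 and 17 counts) inside and an Areg region at 50110 bp (40 and 21 counts) outside, and those of the count with Areg regions of 22 (15 and 7) and 19 (16 and 3) counts. The members and lists were chosen with earlier results of these data known. Named regions are those past the rule, the strongest of each gene and that at the start site, with some others picked after their values were seen, and named pathway genes are, per list, the 2 with most regions past the rule, and those of the kinase list are not reported here. Alternatives were other scalings (DESeq2 1.42.0 size factors among them), count, fold, interval, distance and peak limits and a lowess trend removed, and the summit pileup was added after the data were seen. Ligand protein sequences were planned and not analysed here.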

Additional observations from a re-analysis of the deposited data

How the results depend on the processing

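No paired analysis was possible because each group has 1 library, and no replicate could be left out. Scaling by all counts moved most: 3 members higher and 18 lower, 0 genes with an interval above 1, a log2 fold of -0.20 for the ligand cluster, -0.21 for Areg, -0.28 for Hbegf, -0.15 for Nrg1 and -0.19 for Egfr, 1 flanking gene above 1, and 5 pathway regions higher and 98 lower. Scaling outside the 10 large regions gave 0.16 for the cluster and 12 pathway regions higher. Regions touching the gene span gave 8 members higher, 4 genes above 1, and log2 folds of -0.067 for the cluster and -0.15 for Ereg. The summit pileup gave -0.045 for Areg and -0.015 for Hbegf. At least 50 counts gave 6 members higher and 1 lower, with 16 pathway regions higher and 11 lower, and no minimum gave 5 members lower. Regions with a peak gave 1 lower, and with a strict peak (-log10 q of at least 10) 5 higher and 1 lower, with 16 pathway regions higher and 8 lower. A fold of 1.5 gave 25 members higher and 6 lower with 56 pathway regions higher, a fold of 3 gave 4 and 1 with 6 and 11 pathway regions, and a 99% interval gave 21 pathway regions lower. Strict peaks left 36 of 64 members with a peak in both libraries. More members were higher than lower in every setting run except scaling by all counts. Among all regions near genes this order also held with at least 50 counts, a strict peak and a fold of 1.5. With at least 50 counts 8.33% of members were higher and 1.39% lower, against 6.11% and 6.04% of all regions near genes. With a strict peak these shares were 8.93% and 1.79% against 7.5% and 4.23%. At a fold of 1.5 they were 22.3% and 5.36% against 14.4% and 13.9%. Weak regions rest on few counts, so their folds are wide.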
